A study of Mus musculus with 6 samples.

Results

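To follow early embryonic let-7 target genes under conditional deletion of Dicer, 9 genes were examined in RNA-seq libraries of the mouse telencephalic primordium. They were Lin28a, Lin28b, Trim71, Hmga2, Igf2bp1, Igf2bp2, Igf2bp3, Arid3a and Arid3b, chosen by name as textbook let-7 targets of early embryos and tumours, and all 9 were found among 30928 genes with at least 1 count. RNA came from the rostral tip of the primordium in E11.5 embryos, in 3 control and 3 Rx-Dicer samples. Rx-Dicer embryos carried floxed Dicer on both alleles and a Cre recombinase driven by the regulatory sequences of Rax (Rx). Control embryos are labelled WT, and the study's protocol describes them as floxed Dicer animals without Cre, so both groups carried the floxed alleles. According to the study, Rx-Cre at this stage acts unevenly over the telencephalon and least in the cortical part, so a library can hold cells that kept Dicer. The labels do not say whether a sample is a single embryo or a pool, or whether samples of a group came from separate litters. The p-values weigh a difference only against variation between these samples, estimated with information shared over all genes.

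let-7 miRNAs are short RNAs that pair through their seed, bases 2 to 8, with words in the 3′ UTR of a messenger RNA and lower its stability and translation. They become abundant as embryonic tissues mature. LIN28A and LIN28B bind let-7 precursors and block their maturation, LIN28A partly by recruiting the uridylyl transferases TUT4 and TUT7. The mRNAs of Lin28a and Lin28b carry let-7 sites, so that each side of the loop represses the other. Dicer is needed to cut the let-7 precursor into the mature miRNA.

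The mature sequences show why 1 word in a 3′ UTR can be read by the whole family. In the RefSeq table for GRCm38.p6, 11 of 1679 mature mouse miRNA names carried the let-7 seed. For comparison, 5 family members are given here with the seed in capitals.
mmu-let-7a-5p: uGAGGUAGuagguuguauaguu
mmu-let-7b-5p: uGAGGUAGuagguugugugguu
mmu-let-7d-5p: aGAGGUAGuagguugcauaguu
mmu-let-7i-5p: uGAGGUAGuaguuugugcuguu
mmu-miR-98-5p: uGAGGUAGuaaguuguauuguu

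The target word was searched in the longest annotated 3′ UTR of each gene (GENCODE annotation, GRCm38) on the strand of the transcript. An 8-base site was CTACCTCA, and 7-base sites were CTACCTC or TACCTCA outside an 8-base site. Each of the 9 genes held at least 1 site, and 8 of them held an 8-base site. Among all 21027 genes with an annotated 3′ UTR, 14.9% held a site of any of these kinds, 3.06% held an 8-base site and 0.542% held at least 3 sites. The 9 were chosen as known let-7 targets, so their holding sites follows in part from the choice and carries no test. These are matches of letters, and binding was not measured. The windows below show the site in capitals between 10 bases on each side, written 5′ to 3′, with positions counted from the first base after the stop codon. All sites of Lin28a and the 8-base sites of Lin28b and Trim71 are shown because these genes differed most between genotypes, and 1 site is shown for each of the others.
Lin28a, base 909 of its 3′ UTR, chr4:134005179-134005206, minus strand: gcctgttgaaCTACCTCAtttttgccga
Lin28a, base 1547 of its 3′ UTR, chr4:134004541-134004568, minus strand: cgccacaaacCTACCTCActgtgttgaa
Lin28b, base 36 of its 3′ UTR, chr10:45381012-45381039, minus strand: ggcgggaagtCTACCTCAtgcaagcaca
Trim71, base 166 of its 3′ UTR, chr9:114512462-114512489, minus strand: tgcctaagtcCTACCTCAgcttaaattt
Trim71, base 262 of its 3′ UTR, chr9:114512366-114512393, minus strand: taatttctatCTACCTCAactctttgca
Trim71, base 3591 of its 3′ UTR, chr9:114509037-114509064, minus strand: tatggattttCTACCTCAattttggcaa
Trim71, base 3617 of its 3′ UTR, chr9:114509011-114509038, minus strand: aaaaagttgtCTACCTCAcgtcggcacc
Arid3b, base 67 of its 3′ UTR, chr9:57792433-57792459, minus strand: gcacagaattTACCTCAcctcatggag
Arid3a, base 1974 of its 3′ UTR, chr10:79953900-79953927, plus strand: aagtttctttCTACCTCAggtcttttga
Igf2bp1, base 1715 of its 3′ UTR, chr11:95961768-95961795, minus strand: gcgaagtaaaCTACCTCAaggtgtgaag
Igf2bp2, base 1313 of its 3′ UTR, chr16:22059463-22059490, minus strand: caaataaaagCTACCTCAggtgtttttt
Igf2bp3, base 548 of its 3′ UTR, chr6:49086777-49086804, minus strand: ttttactcaaCTACCTCAggtattcagt
Hmga2, base 58 of its 3′ UTR, chr10:120364214-120364241, minus strand: cattcaatttCTACCTCAgcatcagttg

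The number of sites varied widely among the 9 genes. Hmga2 had the most let-7 sites, 7 in a 3′ UTR of 3014 bases, of which 1 was an 8-base site. Trim71 had 6 sites in 5512 bases, including 4 8-base sites in 2 neighbouring pairs. Lin28b had 5 sites in 4445 bases, Igf2bp1 5 in 6337 bases and Arid3b 5 in 2160 bases, and all 5 of Arid3b were 7-base sites. Arid3a had 4 sites, Lin28a and Igf2bp2 had 2 each, and Igf2bp3 had 1. The 3′ UTRs of the 9 genes, 1784 to 6337 bases, were longer than the median of 960 bases over all genes, and longer sequences hold more words.

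miR-125, which shares genomic clusters with let-7 and also targets Lin28a, was searched the same way, with CTCAGGGA as its 8-base word and CTCAGGG and TCAGGGA as its 7-base words. Both mature forms are shown with their seed in capitals, followed by the single match in Lin28a.
mmu-miR-125a-5p: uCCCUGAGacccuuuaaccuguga
mmu-miR-125b-5p: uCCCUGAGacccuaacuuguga
Lin28a, base 797 of its 3′ UTR, chr4:134005291-134005318, minus strand: catgagcaatCTCAGGGAtaataagtcc

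Arid3a had 7 miR-125 matches, Trim71 4 and Arid3b 3, while Lin28a, Lin28b, Hmga2 and Igf2bp3 had 1 each and the other members had none. Over all genes 19.5% had such a match. An 8-base match, found in 4.6% of all genes, was held by Lin28a, Lin28b, Trim71 and Arid3b (1 each) and by Arid3a (2). Of these, Arid3a alone did not pass the test between genotypes described below. The remaining members, which held no 8-base match, did not pass it either. The part of miR-125 in the differences was not tested.

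**Figure D1:**
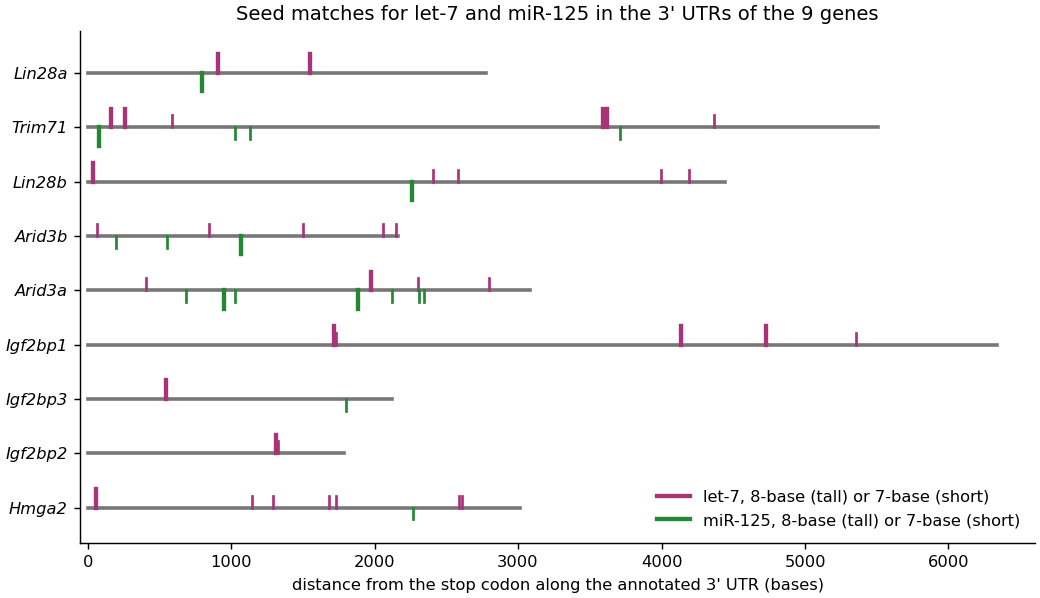
Positions of let-7 (above the line) and miR-125 (below the line) seed matches along the longest annotated 3′ UTR of each gene, in bases from the stop codon. Tall marks are 8-base and short marks 7-base matches, and genes are ordered by their log2 fold change. Hmga2, at the bottom, holds the most let-7 matches and Lin28a, at the top, holds 2.

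The libraries held 34471501 to 48373468 counts on genes, and every member was counted well above the 3 counts that set the floor of a library. Counts were scaled by size factors to normalised counts, and the DESeq2 Wald test was fitted over all genes. A gene was called when its Benjamini-Hochberg adjusted p was under 0.05 and its fold change past the study's minimum, an increase of 25% or its inverse. Dicer1 itself had 6355, 7070 and 6270 normalised counts in controls and 4777, 7002 and 4644 in Rx-Dicer samples. Its log2 fold change was -0.26 ± 0.17 (SE, DESeq2 adjusted p = 0.567). The library labelled Rx-Dicer 2 was at the control level, although reads outside the deleted exons also count for this gene. In bulk tissue, fewer cells of a type and less RNA per cell cannot be told apart.

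Of the 9 genes, 4 were called higher in Rx-Dicer samples, namely Lin28a, Trim71, Lin28b and Arid3b, and none was called lower. Of all 17128 tested genes, 1.75% were called higher, 1.18% lower and 2.93% in either direction. The median log2 fold change of the 9 genes was 0.43, against -0.00087 over all tested genes, and all 9 log2 fold changes were above 0, although that of Hmga2 fell below 0 under 6 of 19 alternative settings. The median of the 9 is that of a list chosen with earlier results known and carries no test. Unadjusted p was under 0.05 for 5 of the 9 genes in DESeq2, against 13.1% of all genes it tested, and for 5 in edgeR's quasi-likelihood test, against 12.9%. After adjustment edgeR called 1 of them, Lin28a, against 0.0446% of the genes it tested. In 5 of the 9 genes, the 4 called and Arid3a, all 3 Rx-Dicer values lay above all 3 controls, which was so for 8.55% of all tested genes. Leaving out control 2 and Rx-Dicer 3, the libraries richest in erythroid markers, left 2 samples a group and 2 called members, Lin28a and Lin28b, with Trim71 at a log2 fold change of 1.84 (DESeq2 adjusted p = 0.157) and Arid3b at 0.66 (DESeq2 adjusted p = 0.244).

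The LIN28 genes stand at the head of the loop. Lin28a (ENSMUSG00000050966, GRCm38 chr4:134003330-134018841, minus strand) encodes the cytoplasmic member of the pair, which binds the loop of let-7 precursors. It had 397, 706 and 715 normalised counts in controls and 3263, 3365 and 4675 in Rx-Dicer samples. The groups lay far apart, the lowest Rx-Dicer value being above the highest control, and control 1 was the lowest library. Its mean rose from 606 ± 181 (SD, n = 3) to 3768 ± 788 (n = 3), 6.21-fold with a 95% interval of 4.61 to 8.37. The log2 fold change of 2.63 ± 0.22 (SE) had a DESeq2 adjusted p of 3.73e-29, rank 2 of the whole table, and an edgeR adjusted p of 0.0240. The library labelled Rx-Dicer 2, with Dicer1 at the control level, had 3365 counts of Lin28a.

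Lin28b (ENSMUSG00000063804, chr10:45376620-45486395, minus strand), its paralogue, which also blocks let-7 maturation, had 941, 1505 and 1553 normalised counts in controls. In Rx-Dicer samples it had 2221, 2644 and 2728. The groups did not overlap, and control 1 was again the lowest. Its mean was 1333 ± 341 in controls and 2531 ± 272 in Rx-Dicer samples (SD, n = 3 each), 1.90-fold (95% interval 1.47 to 2.46). On the log2 scale the difference was 0.92 ± 0.19 (SE) (DESeq2 adjusted p of 2.79e-04, edgeR adjusted p of 0.136). The 95% intervals of the fold changes of Lin28a and Lin28b did not overlap. Per kilobase of exon, the paralogues were alike in controls, at 152 normalised counts for Lin28a and 147 for Lin28b, and at 943 and 279 in Rx-Dicer samples.

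Trim71 (ENSMUSG00000079259, chr9:114507133-114564369, minus strand) encodes an NHL-domain ubiquitin ligase and mRNA repressor, the homologue of the worm let-7 target lin-41. It had 352, 739 and 839 normalised counts in controls and 1998, 2277 and 2511 in Rx-Dicer samples. Every Rx-Dicer library was above every control, and control 1 held less than the other controls. The fold was 3.51 (95% interval 2.50 to 4.93). The log2 fold change of 1.81 ± 0.25 (SE) had a DESeq2 adjusted p of 4.87e-10 and an edgeR adjusted p of 0.0773.

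Arid3b and Arid3a encode DNA-binding proteins with an AT-rich interaction domain. Arid3b (ENSMUSG00000004661, chr9:57790353-57836793, minus strand) had 950, 1268 and 1403 normalised counts in controls and 1851, 1866 and 1842 in Rx-Dicer samples. The Rx-Dicer values were nearly equal, and all exceeded the controls. The fold was 1.53 (95% interval 1.24 to 1.90), with a log2 fold change of 0.62 ± 0.16 (SE), a DESeq2 adjusted p of 0.00908 and an edgeR adjusted p of 0.162. Without Rx-Dicer 3 its log2 fold change was again 0.62, its DESeq2 adjusted p was 0.0601, and the count of called members was 3.

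Arid3a (ENSMUSG00000019564, chr10:79927043-79955018, plus strand) had 1372, 2112 and 1948 normalised counts in controls and 2316, 2392 and 2625 in Rx-Dicer samples. Its groups also lay apart, but it was not called. On the log2 scale it was higher by 0.43 ± 0.17 (SE), 1.35-fold (95% interval 1.07 to 1.70), with an unadjusted p of 0.0104, a DESeq2 adjusted p of 0.165 and an edgeR adjusted p of 0.283. The intervals of Arid3a and Arid3b overlapped, and a difference between them in response was not tested.

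Hmga2 (ENSMUSG00000056758, chr10:120361275-120476469, minus strand) encodes an AT-hook protein of chromatin and is among the best studied let-7 targets. It had 25882, 32390 and 26174 normalised counts in controls and 23875, 23615 and 40354 in Rx-Dicer samples. The groups overlapped, and 2 of the 3 Rx-Dicer values were below every control while Rx-Dicer 3 was the highest of all 6. The fold was 1.04 with a 95% interval of 0.793 to 1.37, and the log2 fold change 0.06 ± 0.20 (SE, DESeq2 adjusted p = 0.969, edgeR adjusted p = 0.936). Its direction rested on single libraries: without Rx-Dicer 3 the log2 fold change was -0.25, and without Rx-Dicer 2 it was 0.19. The libraries with the highest Hmga2 of each genotype, control 2 and Rx-Dicer 3, also had the most erythroid marker counts, 980830 and 981610 against 348460 to 462740 in the other 4. Without both, the log2 fold change of Hmga2 was -0.13.

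The 3 Igf2bp genes encode RNA-binding proteins that stabilise and localise mRNAs of the embryo, Igf2 mRNA among them. Igf2bp1 (ENSMUSG00000013415, chr11:95957163-96005940, minus strand) had 15416, 21320 and 20636 normalised counts in controls and 20549, 24332 and 23197 in Rx-Dicer samples. Igf2bp2 (ENSMUSG00000033581, chr16:22059009-22163299, minus strand) had 9559, 10217 and 10801 in controls against 10557, 11718 and 11809 in Rx-Dicer samples. Igf2bp3 (ENSMUSG00000029814, chr6:49085223-49214957, minus strand) had 7197, 7409 and 8804 in controls against 7642, 10555 and 9110 in Rx-Dicer samples. In each gene the lowest Rx-Dicer library, Rx-Dicer 1, fell within the controls. The folds were 1.19 (95% interval 0.969 to 1.45) for Igf2bp1, 1.11 (0.957 to 1.30) for Igf2bp2 and 1.17 (0.952 to 1.43) for Igf2bp3. None passed the test, with DESeq2 adjusted p of 0.521, 0.638 and 0.601. Their intervals overlapped that of Arid3b, and a difference from it in response was not tested.

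**Figure D2:**
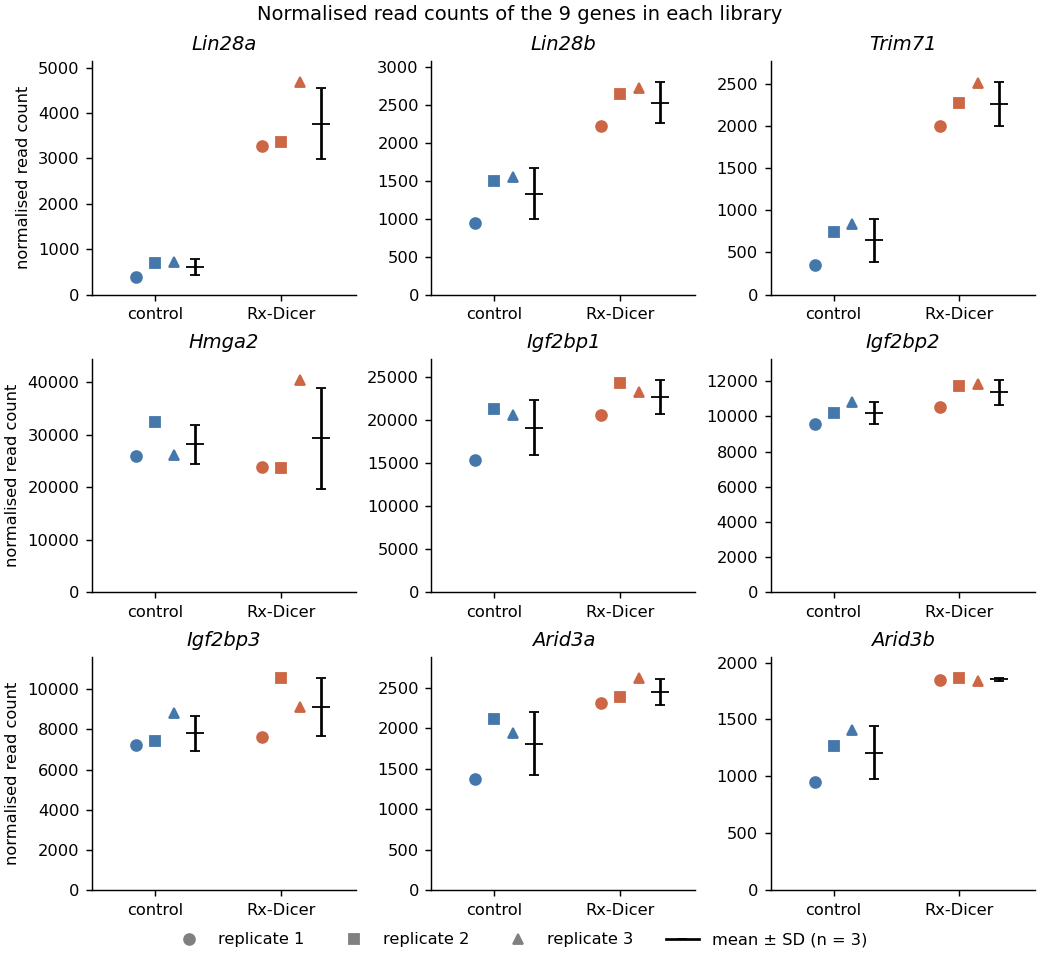
Normalised read counts of each gene in the 3 control (blue) and 3 Rx-Dicer (orange) libraries, on linear axes from 0, with the mean and SD in black. In Lin28a, Lin28b, Trim71, Arid3a and Arid3b all Rx-Dicer points lie above the controls, whereas in Hmga2 only Rx-Dicer 3, at 40354, does.

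**Figure D3:**
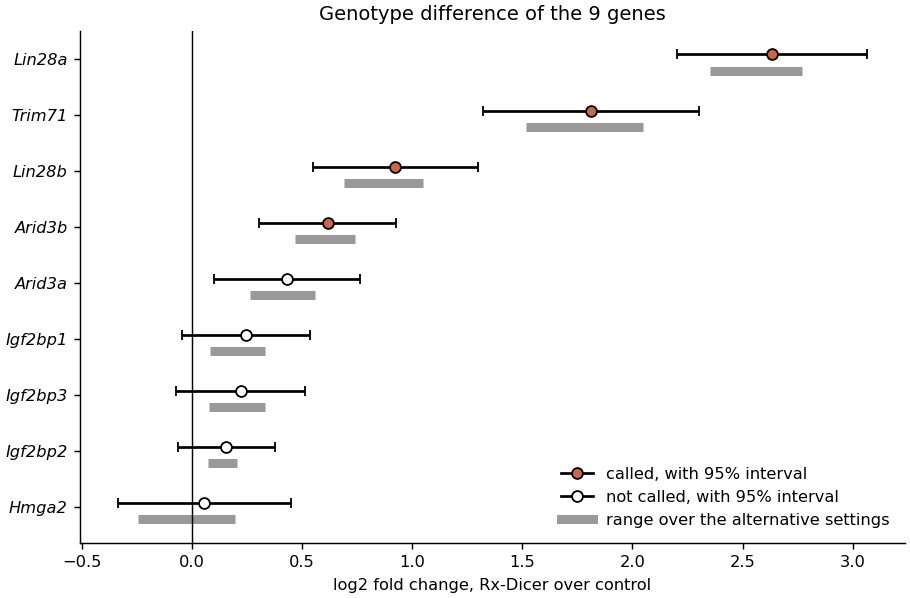
Log2 fold change of the 9 genes between genotypes, with 95% intervals from the DESeq2 fit (points) and the range over 19 alternative settings (grey bars). Filled points were called. The values run from 2.63 for Lin28a to 0.06 for Hmga2, the only gene whose grey bar crosses 0.

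Levels of different genes were compared only per kilobase of exon. In controls Hmga2 was highest at 4157 normalised counts per kilobase, followed by Igf2bp1 at 1975, Igf2bp2 at 1377, Igf2bp3 at 956 and Arid3a at 326. Neighbours in this order did not overlap over the 3 libraries. Below them Lin28a at 152, Arid3b at 151 and Lin28b at 147 overlapped and could not be ordered, and Trim71 was lowest at 68.9. The 4 called genes were thus the 4 of lowest control level. The control level is also the denominator of the fold change used for the call, so this carries no test. In Rx-Dicer samples Lin28a, at 943, moved into the range of Igf2bp3 at 1116, while Lin28b at 279, Trim71 at 242 and Arid3b at 232 stayed the lowest. The number of let-7 sites ranged from 2 to 6 in the called and from 1 to 7 in the uncalled genes.

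Among all other tested genes with an annotated 3′ UTR, the share called higher was 1.79% of 11618 without a let-7 site, 2.73% of 1975 with 1 site, 4.14% of 362 with 2 sites and 11.2% of 89 with at least 3. Of those 89, 10 were called higher and 0 lower. Their median 3′ UTR length was 5116 bases against 1024 in genes without a site, and length was not separated from site number. The 89 genes include Nr6a1, an orphan nuclear receptor of early embryos, with 8 sites.

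Most of the genes also varied together between libraries of the same genotype, Hmga2 and Igf2bp3 less than the others. Control 1 was the lowest control in 9 of 9 genes, with log2 deviations from the control mean of -0.77 in Trim71, -0.56 in Lin28a and -0.47 in Lin28b. Rx-Dicer 1 was the lowest Rx-Dicer library in 7 of 9. Control 1 had the fewest counts on genes of all libraries, 34471501, and Rx-Dicer 1 the most, 48373468. Reads outside genes were 29.8% in control 1, the highest control, and 25.9% in Rx-Dicer 1, the lowest Rx-Dicer library. The part of depth in these deviations was not tested. Over the 28 pairs of genes without Hmga2, Pearson's r of deviations from the genotype means over 6 samples had a median of 0.85 and ranged from 0.32 to 0.98. The lowest of them were pairs with Igf2bp3, at 0.32 with Arid3a, 0.36 with Lin28a and 0.46 with Arid3b. Igf2bp3 reached 0.86 with Igf2bp2. Over the 8 pairs with Hmga2 the median was 0.36, from -0.05 with Igf2bp3 to 0.64 with Lin28a. These values share their libraries and size factors. The summed level of 8 early neuron markers ran the other way, with 85015 normalised counts in control 1 against 65468 and 66075 in the other controls. Rx-Dicer 1 held 74009, against 58175 and 54434 in the other Rx-Dicer libraries. None of those 8 markers was called. With that sum as a covariate, chosen after the data were seen, Lin28a, Lin28b and Trim71 were still called, at log2 fold changes of 2.35, 0.69 and 1.52. Arid3b was then at 0.51 with a DESeq2 adjusted p of 0.101. The part of these markers in the differences was otherwise not tested.

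**Figure D4:**
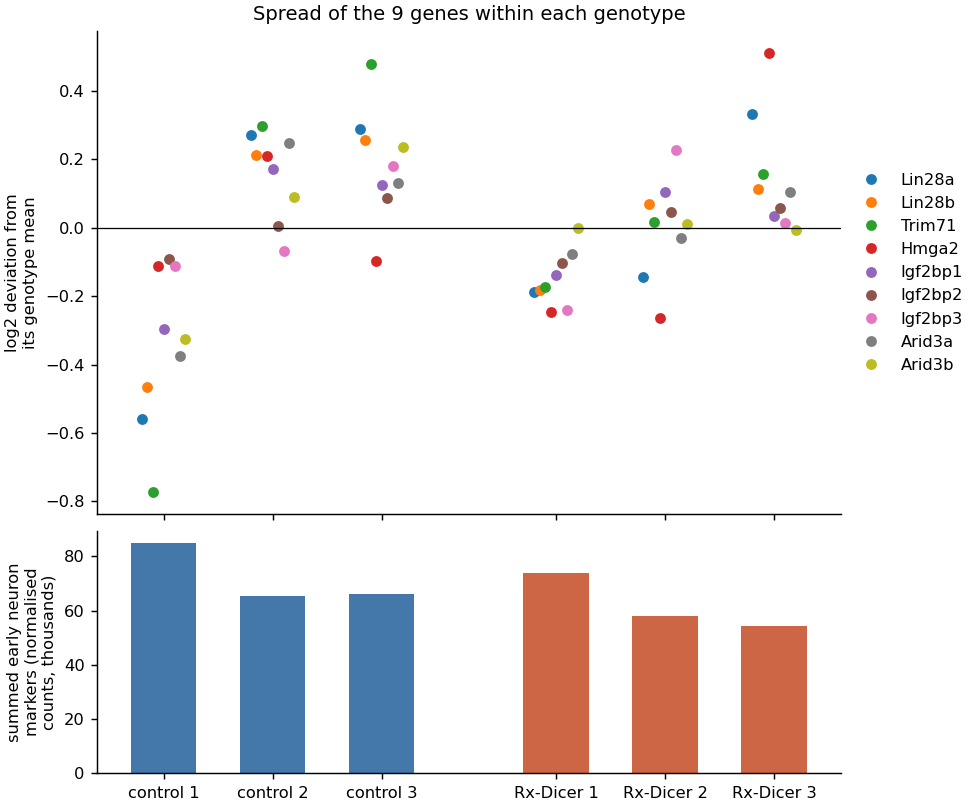
Upper plot, deviation of each gene from its genotype mean (log2 of the normalised count plus 1) in each library. Lower plot, summed normalised counts of 8 early neuron markers. Control 1 and Rx-Dicer 1 hold the most neuron marker counts of their genotypes, 85015 and 74009, and control 1 is the lowest control for all 9 genes.

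Markers of other cells were present in this tissue. The telencephalic neuroepithelium markers summed to 163240 to 180010 normalised counts in controls and 151110 to 172370 in Rx-Dicer samples, and 1 of 10, Six3, was called higher and 2, Fabp7 and Pax6, lower. Ventral telencephalic markers summed to 6022 to 12677 and 5021 to 18429, with Lhx6 and Lhx8 of 8 called higher. Nkx2-1, the ventral marker with the largest change, had 3.66, 51.9 and 192 in controls against 682, 1882 and 1307. Its log2 fold change was 3.97 (DESeq2 adjusted p = 0.0549), not called. Dorsal markers summed to 41742 to 65466 and 34344 to 51556, with Pax6 and Eomes of 8 called lower. Control 3 and Rx-Dicer 2 each held the highest ventral and the lowest dorsal sum of their genotype. Head mesenchyme markers summed to 37058 to 81393 and 57741 to 72803, with Foxd1 of 9 called higher. Microglial markers summed to 861 to 1058 in controls, and to 3162, 963 and 2065 in Rx-Dicer 1, 2 and 3, with Csf1r and Cx3cr1 of 7 called higher. The microglial sum of Rx-Dicer 2 was within the control range. Its Lin28a, Trim71, Lin28b and Arid3b were above every control. This is 1 library and cannot decide the part of microglia, which was not tested. Of 7 retina and hypothalamus markers 5 were tested, and Otp was called higher and Pomc lower. No erythroid, endothelial or surface ectoderm marker was called. The part of these cells in the differences of the 9 genes was not tested.

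The machinery that makes let-7 and silences through it was examined next. Of 18 genes for let-7 maturation and silencing, 1 was called higher and 0 lower, with a median log2 fold change of 0.03. The called gene, Trim25, encodes a cofactor of LIN28A in the uridylation of let-7 precursors. It had 246, 313 and 276 normalised counts in controls and 481, 380 and 400 in Rx-Dicer samples, with a log2 fold change of 0.60 ± 0.19 (SE), a DESeq2 adjusted p of 0.0467 and an edgeR adjusted p of 0.212. This call was lost in 13 of 19 alternative settings. Tut4, Tut7 and the exonuclease Dis3l2, which act on LIN28-bound precursors, had log2 fold changes of 0.15, 0.02 and 0.01 and were not called. Ago2, the slicing Argonaute, had 6861, 10167 and 9204 in controls against 11965, 12344 and 11376 in Rx-Dicer samples. Its groups lay apart, with a log2 fold change of 0.44 and a DESeq2 adjusted p of 0.0914. The 15 let-7 and miR-125 hairpin genes summed to 3.76 to 19.4 normalised counts per library and none was tested, so these libraries hold no measure of the precursors.

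Of 40 other let-7 targets in the list, 39 were tested, 6 were called higher and 1 lower, and their median log2 fold change was 0.14. The 6 were Irs2, Cdk6, Nr6a1, Prtg, Igdcc3 and Onecut2, and edgeR called 1 of them, Prtg. Nr6a1 had 151, 259 and 251 normalised counts in controls and 829, 509 and 805 in Rx-Dicer samples. The groups lay apart, at a log2 fold change of 1.69 ± 0.25 (SE, DESeq2 adjusted p = 5.83e-09, edgeR adjusted p = 0.0773). Igdcc3, an immunoglobulin-domain surface protein related to Prtg, had 2456, 4163 and 3466 in controls against 8201, 7599 and 7618 in Rx-Dicer samples. Its log2 fold change was 1.22 ± 0.18 (SE, DESeq2 adjusted p = 5.11e-09, edgeR adjusted p = 0.0719). The lower gene, Gdf6, a BMP-type ligand, had 58.6, 5.09 and 20.7 in controls against 5.15, 0 and 2.85 in Rx-Dicer samples, so its groups overlapped at low counts (DESeq2 adjusted p = 0.0400).

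No gene was called in the lists of family relatives, pluripotency genes and partners of the 9 genes. Of all tested genes 2.93% were called in either direction, so 0 calls in lists this short carry no contrast. Of 6 family relatives, among them Hmga1, Arid3c and Trim32, 0 were called and the median log2 fold change was -0.02. Hmga1 was at -0.06 ± 0.22 (SE, DESeq2 adjusted p = 0.969). Of 12 pluripotency genes 4 passed the filter on low counts and 0 were called. The median log2 fold change of these 4 was 0.27. Sall4, Klf4 and Dnmt3b were at 0.21, 0.34 and 0.35, and Sox2 at -0.16. Only in Dnmt3b did the groups lie apart (DESeq2 adjusted p = 0.165). Among the genes not tested, Pou5f1, Nanog and Zfp42 share the pluripotent cells of the embryo with Lin28a. They had means of 1.74, 4.41 and 0.720 normalised counts in controls and 0.603, 6.91 and 0.317 in Rx-Dicer samples. Of 9 RNA and gene partners of the 9 genes, 7 were tested and 0 called. H19, a noncoding RNA that binds let-7, had a log2 fold change of -0.04 ± 0.16 (SE, DESeq2 adjusted p = 0.977), and Cdkn1a, whose translation TRIM71 is known to repress, was at 1.51 ± 0.60 (DESeq2 adjusted p = 0.172).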

How the data were processed

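Raw read counts per Ensembl gene were deposited by the authors. Per the methods and labels, 100 bp paired reads of directional libraries were trimmed with Trim Galore 0.6.5, aligned with HISAT2 to GRCm38.p6 and counted with HTSeq 0.12.4 (union mode, reverse strand), so a gene and its antisense partner are counted apart. Each sample had 2 count files, 12 in all, treated as repeat runs and summed, since chi-square per degree of freedom was 1.11 to 1.47 between runs of a sample and 20.5 to 29.6 between samples of a group. Reads assigned to no gene, 24.9 to 31.0% of those tallied, were left out. The floor of 3 counts was 0.0620 to 0.0870 CPM, which covers counting error only.

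Genotypes were compared with the DESeq2 1.42.0 Wald test in R 4.3.3 (median-of-ratios factors, independent filtering, no other filter, genotype as the only term), the tool and thresholds of the study. edgeR 4.0.16 (quasi-likelihood test, TMM factors, at least 10 counts in at least 3 samples) was an alternative, with other scalings, filters and thresholds, single runs, a replicate block, a length and GC correction and fits without each sample. The scripts were tested on simulated data. Intervals are Wald intervals at 95%. Per-kilobase levels divide by summed exon length. The 9 genes, the gene lists and the markers, which came from general knowledge, were chosen with earlier results of these data known. Named genes were the 9, Dicer1, called members of the lists, uncalled list members whose role bears on one of the 9, and the 5 genes most correlated with Lin28a and with Hmga2. miRNA sequences are from RefSeq (GRCm38.p6), and 3′ UTRs from GENCODE M21. Small RNA data were not used here.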

Additional observations from a re-analysis of the deposited data

How the results depend on the processing

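Fold changes of the 9 genes were recomputed under 19 alternatives, 2 of them chosen after the data were seen, 171 values in all. Of these, 158 kept their direction and their side of the call, 7 lost the call and 6 changed sign. Lin28a was called in 19 of 19, Lin28b in 18, Trim71 in 17, Arid3b in 15 and the other 5 genes in none. All sign changes were in Hmga2, with log2 fold changes of -0.036 after the length and GC correction, -0.077 with that correction and the replicate block, -0.25 to 0.19 when 1 replicate was left out, -0.17 with the early neuron covariate and -0.13 without the libraries with the most erythroid marker reads. The number of called members was 1 in edgeR, 3 to 4 when 1 replicate was left out, 3 with the neuron covariate and 2 without both erythroid-rich libraries. The number of genes called over the whole table, 502, was 8 in edgeR, 322 without independent filtering, 314 with the replicate block, 296 when the block was joined with that correction, 123 without both erythroid-rich libraries (2 samples a group), and 285 to 637 when 1 replicate was left out, lowest without control 2 and highest without Rx-Dicer 1. edgeR's 8 stand beside 2313 genes at an unadjusted p under 0.05, and DESeq2's 502 beside 2324 (genes removed by independent filtering included). Same-numbered samples of the genotypes did not deviate together (r of 0.19, 0.03 and -0.15), so the numbers were not taken as pairs, and the block left the 4 called members called. The cause of these changes was not tested. No scaling moved the median of all genes by more than 0.05 on the log2 scale. With 3 samples a group, the spread between samples, more than counting error, sets the width of the intervals.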

Other observations

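Over the 6 samples, 12895 genes with a mean of at least 100 normalised counts were compared with Lin28a and Hmga2 on the log2 scale. Those most like Lin28a were 6030458C11Rik, with a Pearson r of 0.999, Ccdc50, Rcor1, Smurf2 and Atl3. The log2 fold changes of these 5 ranged from 0.28 to 0.54, far below that of Lin28a, and 6030458C11Rik and Atl3 were called. Those most like Hmga2 were Ttc39a, with an r of 0.990, Dnase1l1, Uba2, Pms1 and Grina, none of them called. These are descriptions of shared libraries, picked as the highest of many, and carry no test.

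Outside the 9, 89 tested genes held at least 3 let-7 sites, and 10 of them (11.2%) were called higher and 0 lower. Besides Nr6a1, Prtg and Onecut2 the 10 were Pou2f2, Fignl2, Rab11fip1, Zfp568, Ankrd52, Hif1an and Clcn5, named after their values were seen. Pou2f2, a POU-domain transcription factor, had 332 ± 40.7 normalised counts in controls and 847 ± 143 in Rx-Dicer samples (SD, n = 3 each), with a log2 fold change of 1.35 ± 0.18 (SE, DESeq2 adjusted p = 1.37e-10, edgeR adjusted p = 0.0581). Hif1an, an oxygen-sensing hydroxylase, had the smallest change but one, 0.57 ± 0.15 (DESeq2 adjusted p = 0.0116). Most of the 89 were not called. Among these, Fign, with 6 sites of which 3 were 8-base sites, was at 0.32 ± 0.23 (DESeq2 adjusted p = 0.630). Hic2, a transcriptional repressor with 5 sites, was at 0.46 ± 0.16 (DESeq2 adjusted p = 0.0997).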
